A study of Mus musculus with 22 samples.

Results

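The gene set described here is 33 lysosome genes, chosen by symbol: enzymes of the lysosome lumen, proteins of its membrane, and accessory subunits of its proton pump. They were chosen with earlier results of these data known, so shares of members called, set beside those of all genes, are a description. Each of the 33 symbols was found in both deposited count tables, among 20668 genes counted in nuclei and 16304 genes counted in whole cells. By role, 8 encode prosaposin and membrane proteins (Psap, Lamp1, Lamp2, Cd63, Cd68, Laptm4a, Laptm4b, Scarb2), 9 encode cathepsins (Ctsa, Ctsb, Ctsc, Ctsd, Ctsf, Ctsh, Ctsl, Ctso, Ctsz) and 7 encode glycosidases (Hexa, Gaa, Galc, Glb1, Neu1, Man2b1, Gusb). The remaining members are 4 genes of lipid and cholesterol handling (Npc1, Npc2, Lipa, Asah1), 3 genes of other lumen proteins (Tpp1, Ppt1, Grn) and 2 accessory subunits of the vacuolar proton pump (Atp6ap1, Atp6ap2).

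Lysosomes are acidic compartments in which proteins, glycans and lipids taken up or discarded by the cell are broken down. Cathepsins are their proteases, and prosaposin is cleaved into small activator proteins (saposins) that present glycolipids to the hydrolases. Lamp1 and Lamp2 line the membrane, Npc2 and Npc1 hand cholesterol out of the lumen, and in the brain microglia are known for a high content of these enzymes.

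Hypothalamic RNA of 22 male Lep ob/ob mice (strain ob/ob, 11 weeks old, 1 mouse per sample) was counted after a single intracerebroventricular (icv) injection of 3 µg FGF1 or of vehicle. All groups shared the leptin deficiency of the strain, and vehicle mice were pair-fed to the intake of FGF1 mice. Single nuclei were taken from 3 FGF1 and 3 vehicle mice at Day 1 and from 2 FGF1 and 2 vehicle mice at Day 5, and single whole cells, from which neurons had been removed, from 6 FGF1 and 6 vehicle mice at Day 5. By the study's reporting summary, mice for nuclei came from Jackson Labs and those for whole cells from Janvier Labs. Its methods give a hypothalamic punch for nuclei and a triangular section of the mediobasal hypothalamus for cells. The tables held 24965 nuclei and 54890 cells, with 2721087 to 16345981 unique molecular identifiers (UMIs) per mouse in nuclei and 2652897 to 11866269 in cells. The same barcode sequence stood in more than 1 sample for 638 nuclei (2.556%) and 3616 cells (6.588%). Nuclei kept the deposited type names. The numbered clusters of whole cells were named from marker genes, with "-like" added to each name. Checked against their markers, clusters 1 and 4 carried 6 of 6 astrocyte markers and cluster 8 carried 8 of 8 microglia markers. Nuclei labelled Micro carried 7 of 8 microglia markers, but in vehicle mice their neuron markers summed to 137 to 182 UMIs per 10000 on Day 1 against 6.17 to 12.9 for the microglia markers, and the values of that label are given with this in mind.

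The promoter stretches of 3 members that passed the test in astrocyte-like cells and carry the E-box CACGTG are shown with that of Psap, which rose there and has no such match. Of the 3, Lamp1 and Ctsd rose and Ctsf fell. CACGTG is the core that transcription factors of the TFEB family are known to bind in lysosome genes, and it reads the same on both strands. Among 28 members with a RefSeq promoter window (250 bases before to 50 bases after the transcription start, GRCm38.p6), 7 (25.0%) held CACGTG, against 2187 of 27025 genes (8.09%), where a gene with several windows counted once, through any of them. The longer TCACGTGA, which contains CACGTG, was in 2 of 28 (7.14%) against 304 of 27025 (1.12%). Stretches run 5′ to 3′ on the strand of the gene, from 150 bases before the start, with the E-box in capitals. The start is that of the promoter table, which for Ctsd and Ctsf lies inside the gene record. A match is a description of the letters in the window only.
Lamp1 (chr8:13159011-13159160, plus strand): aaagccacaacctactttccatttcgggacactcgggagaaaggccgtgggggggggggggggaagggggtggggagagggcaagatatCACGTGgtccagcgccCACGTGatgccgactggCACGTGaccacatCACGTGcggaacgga
Ctsd (chr7:142387828-142387977, minus strand): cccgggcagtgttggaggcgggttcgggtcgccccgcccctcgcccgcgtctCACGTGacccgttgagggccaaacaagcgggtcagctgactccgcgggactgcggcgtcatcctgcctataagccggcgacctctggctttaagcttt
Ctsf (chr19:4855015-4855164, plus strand): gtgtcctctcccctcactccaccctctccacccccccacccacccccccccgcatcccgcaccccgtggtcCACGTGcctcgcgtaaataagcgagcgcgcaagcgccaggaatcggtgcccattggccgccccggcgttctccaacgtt
Psap (chr10:60277478-60277627, plus strand): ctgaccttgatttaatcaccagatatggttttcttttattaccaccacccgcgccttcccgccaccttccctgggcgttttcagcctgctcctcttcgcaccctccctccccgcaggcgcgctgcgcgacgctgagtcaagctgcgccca

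Lamp1 (chr8:13159161-13175338, plus strand) held 4 matches, which began 61, 45, 28 and 15 bases before the start. Ctsd (chr7:142375911-142388038, minus strand) held matches at 245 and 98 bases before it, the nearer of which is in the printed stretch. Ctsf (chr19:4855130-4860918, plus strand) held 1 match at 79 bases before it. Psap (chr10:60277627-60302597, plus strand), Cd63, Laptm4a, Ppt1, Scarb2 and Tpp1 held none. The other members with a match were Ctsa, Ctsl, Gaa and Glb1. Of 18 further lysosomal hydrolase genes with a window 5 (27.78%) held CACGTG, and of 11 genes of the vacuolar proton pump 4 (36.36%).

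In vehicle mice the set as a whole was highest in microglia-like cells. UMIs of the 33 genes per 10000 UMIs of a mouse were 115.17 ± 20.41 (SD, n = 6) in microglia-like cluster 8, with a lowest value of 99.547, a median of 103.34 and a highest of 143.62. Macrophage-like cells followed at 86.2, VLMC-like (vascular leptomeningeal) cells at 61.0, astrocyte-like cells at 57.06 ± 5.05 and tanycyte-like cells at 52.8. The lowest levels were 38.9 in endothelial-like cells and 43.5 in OPC-like (oligodendrocyte precursor) cells. The order was not the same for each gene. CPM is the UMIs of a gene relative to the TMM-scaled library size, which holds only genes that passed the low-count filter in a cluster. Its mean peaked in microglia-like cells for 10 members (Psap, Ctsd, Ctsf, Ctsh, Ctsl, Ctsz, Man2b1, Gusb, Ppt1, Grn) and in macrophage-like cells for 9 (Cd68, Ctsa, Ctsb, Ctsc, Hexa, Glb1, Neu1, Npc2, Asah1), and the other 14 peaked elsewhere. The filter kept 313 genes in pericyte-like, 782 in macrophage-like, 877 in VLMC-like, 2676 in microglia-like and 9441 in tanycyte-like cluster 0. UMIs of all other genes are left out, which raises CPM, so clusters are not on one scale. The peaks and ratios given here hold for this measure only.

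**Figure D1:**
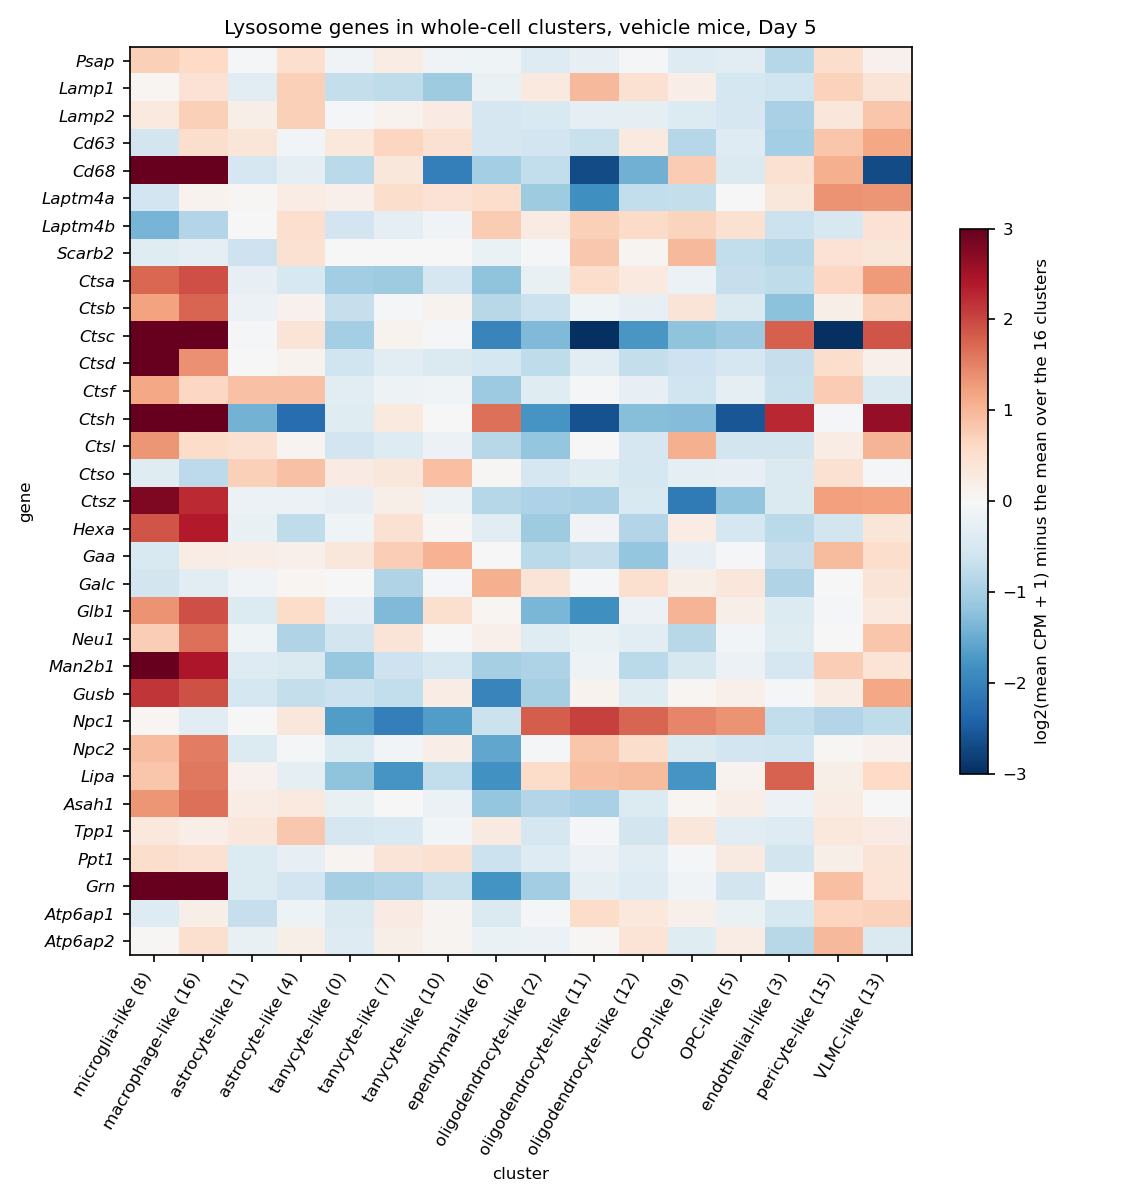
Level of each of the 33 lysosome genes (rows) in the 16 named whole-cell clusters (columns) of vehicle mice on Day 5, as log2(mean CPM + 1) minus that gene's mean over the clusters. Microglia-like cluster 8 is the highest cluster for 10 genes and macrophage-like cluster 16 for 9, while Lamp1 and Npc1 are highest in oligodendrocyte-like cluster 11. CPM is relative to the UMIs of genes that passed the low-count filter in each cluster, so clusters are not on one scale.

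Leaving out macrophage-like cells, the ratio of microglia-like cells to the next cluster was highest for Cd68, Ctsc, Ctsd, Man2b1 and Grn. Macrophage-like cells (4 vehicle mice) were higher than microglia-like cells for Cd68 (243 ± 65.4 CPM), Ctsc (765 ± 260) and Asah1 (223 ± 32.8), and lower for Ctsd (825 ± 399). These values describe clusters that were formed from the same cells, so no test was made. They also stand on the CPM scale of each cluster, as do the levels of Psap, Lamp1, Cd63, Laptm4a and Npc1 below. Ctsd, the main aspartic protease of lysosomes, was at 3378 ± 1107 CPM (SD, n = 6) in microglia-like cells and at 457 ± 229 in pericyte-like cells, the next of the clusters other than macrophage-like cells, a ratio of 7.40. For Cd68, a membrane protein used as a marker of phagocytes, the levels were 183.6 ± 58.7 and 12.5 ± 30.5 (ratio 14.7). For Ctsc, which activates serine proteases, the ratio to VLMC-like cells was 8.66, for Man2b1, an alpha-mannosidase, that to pericyte-like cells was 6.88, and for Grn, the gene of progranulin, it was 5.60. In Ctsd, Cd68, Ctsc, Man2b1, Grn, Ctsz, Ctsh, Asah1 and Gusb every microglia-like sample of vehicle mice lay above every sample of the next cluster.

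Psap did not follow this pattern. Its level was 2030 ± 324 CPM in microglia-like and 1769 ± 425 in pericyte-like cells, and the mice overlapped. Lamp1, Cd63 and Laptm4a, unlike Cd68, were lower in microglia-like cells. Lamp1 was at 478 ± 97.6 CPM in microglia-like cells against 909 ± 53.2 in oligodendrocyte-like cluster 11, Cd63, a tetraspanin of late endosomes, at 453 ± 135 against 1497 ± 398 in VLMC-like cells, and Laptm4a at 316 ± 51.2 against 1206 ± 334 in pericyte-like cells. For these 3 genes every microglia-like sample lay below the samples of the higher cluster. Npc1, the cholesterol exporter, was at 68.8 ± 25.7 CPM in microglia-like cells and at 274 ± 57.6 in cluster 11, and its 3 highest clusters were all oligodendrocyte-like.

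Genes whose level followed the members closely across 18 clusters, among 12066 genes compared, were Fgd2 (Pearson r = 0.8429), Tgfbr1 (0.8379), Hvcn1 (0.8261) and Nckap1l (0.8213). Each was highest in microglia-like cells. The 18 points are clusters that share mice, libraries and depth, and r is given as a description.

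After icv FGF1 more members passed the test in the astrocyte-like class of Day 5 cells than in any other class or nuclear type tested, though most members did not pass there. Lamp1 rose 2.07-fold, and Psap, Ctsb, Laptm4a, Ppt1, Scarb2, Tpp1 and Ctsd also rose, while Ctsf fell. Clusters 1 and 4 were merged into this class because vehicle and FGF1 cells lay in different clusters. In vehicle mice cluster 1 held a median of 93.4% of the class (81.63 to 96.26%), and in FGF1 mice cluster 4 held 79.38% (47.85 to 93.07%). The genes Gfap and Serpina3n led cluster 4. A change within the class and a change in the mix of its clusters cannot be told apart. Of the 32 members tested in the class, 8 were higher and 1 was lower at an FDR below 0.05 (edgeR), where 6.55% of all 9830 genes tested were higher and 6.06% lower. Their median log2 fold change was 0.13, against -0.02 over all genes tested, and 22 were above 0. Cd68 had too few UMIs to be tested.

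Summed over all members, the astrocyte-like class held 52.787 to 65.943 UMIs per 10000 in vehicle mice (median 55.368) and 72.62 to 86.03 in FGF1 mice. The groups did not overlap, and the ratio of the means was 1.36. The sum weighs members by their UMIs, so abundant members that rose, such as Psap and Lamp1, count for more than the median member. The same sum had a ratio of 1.29 in microglia-like cells, where the groups overlapped, of 1.15 in pericyte-like, 1.10 in VLMC-like, 1.09 in endothelial-like, 1.07 in macrophage-like and 1.06 in OPC-like cells, and of 1.00 to 1.04 in COP-like, ependymal-like, tanycyte-like and oligodendrocyte-like cells.

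**Figure D2:**
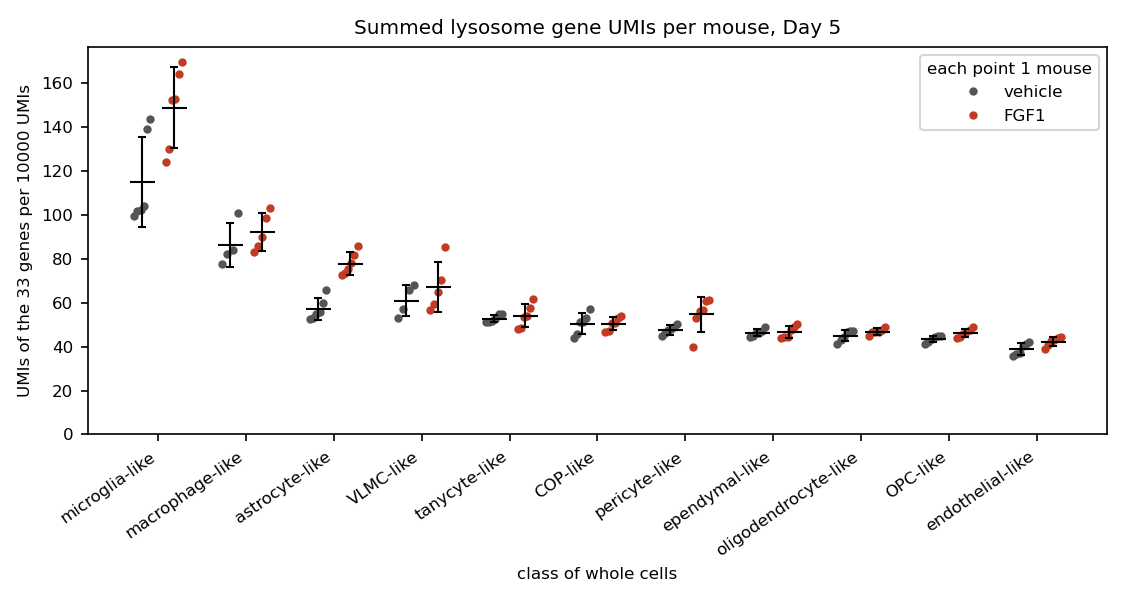
UMIs of the 33 lysosome genes per 10000 UMIs (y axis, from 0) in each class of whole cells on Day 5. Each point is 1 mouse and black marks are the mean ± SD. Astrocyte-like cells of FGF1 mice (72.62 to 86.03) lie above those of vehicle mice (52.787 to 65.943), and microglia-like cells are the highest class in both groups.

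Among the membrane proteins and precursors, Lamp1, the major glycoprotein of the lysosome membrane, had 346.54 CPM in the lowest, 385.42 in the median and 450.51 in the highest vehicle mouse, and 622.05, 792.78 and 1036.5 in FGF1 mice. All 6 FGF1 mice were above all 6 vehicle mice, with a log2 fold change of 1.05 (SE 0.11, FDR 3.26e-07). Psap had 1102.9, 1193.2 and 1380 CPM in vehicle mice and 1734.3, 1960.5 and 2146.3 in FGF1 mice, again with no overlap (log2 fold change 0.67, SE 0.10, FDR 2.92e-05). Laptm4a, a small membrane protein of late endosomes and lysosomes, went from 393.53, 477.58 and 559.51 CPM to 590.69, 626.57 and 764.34 (0.44, SE 0.10, FDR 0.0044), and these groups did not overlap either. Scarb2, the receptor that carries glucocerebrosidase to lysosomes, had 98.104, 120.18 and 138.98 CPM in vehicle and 137.91, 165.45 and 224.93 in FGF1 mice (0.50, SE 0.12, FDR 0.00679), with an overlap at the edge. Cd63, in contrast, spread from 689.67 to 995.02 CPM in vehicle and from 549.26 to 1203.5 in FGF1 mice (-0.07, SE 0.17, FDR 0.834). Lamp2 (0.13, FDR 0.422) and Laptm4b (0.12, FDR 0.551) did not pass.

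Cathepsins did not move as a block. Ctsb, a cysteine protease, had 314.86, 371.52 and 405.03 CPM in the lowest, median and highest vehicle mouse and 443.41, 518.84 and 575.04 in FGF1 mice, with no overlap (log2 fold change 0.52, SE 0.10, FDR 0.00102). Ctsd had 271.99, 295.75 and 385.51 CPM in vehicle and 345.59, 398 and 454.44 in FGF1 mice (0.35, SE 0.11, FDR 0.028), and the groups overlapped through 1 vehicle mouse, replicate 22. Ctsf, another cysteine protease, fell from 74.519, 103.32 and 125.08 CPM to 67.286, 73.303 and 92.428 (-0.44, SE 0.13, FDR 0.0231), also with an overlap. The calls of Ctsd and Ctsf depended on single mice. That of Ctsd was lost without any of vehicle replicates 29, 27, 20 and 25 and FGF1 replicates 7 and 28 (FDR 0.0532 to 0.0642), and that of Ctsf without vehicle replicates 29 or 22 or FGF1 replicates 7, 6 or 21 (FDR 0.053 to 0.0608). The other 6 cathepsins did not pass, with log2 fold changes from -0.13 (Ctsl) to 0.49 (Ctsh). Ctsd and Ctsl overlap other genes on the same strand, as Glb1 does, and their counts are uncertain to that extent. Per role, 4 of 7 membrane proteins and precursors tested were higher, and 2 of 9 cathepsins were higher and 1 lower.

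Of the 3 other lumen proteins, Ppt1 and Tpp1 rose, and both are known from childhood neuronal ceroid lipofuscinoses. Ppt1, a palmitoyl thioesterase, had 66.553, 77.748 and 108.05 CPM in vehicle and 96.764, 114.07 and 135.29 in FGF1 mice (log2 fold change 0.51, SE 0.12, FDR 0.00552). Tpp1, a tripeptidyl peptidase, had 124.09, 136.69 and 162.08 CPM in vehicle and 155.51, 190.07 and 212.66 in FGF1 mice (0.43, SE 0.11, FDR 0.00852). Both genes overlapped between the groups only at the edge, and Grn did not pass (0.32, SE 0.14, FDR 0.141). None of the 7 glycosidases passed (largest 0.49 for Glb1, FDR 0.154), and neither did the 4 genes of lipid and cholesterol handling. Npc2 had 197.47, 214.77 and 297.05 CPM in vehicle and 224.93, 280.64 and 313.98 in FGF1 mice (0.20, SE 0.12, FDR 0.301), and Npc1 stood at -0.17 (FDR 0.43). The pump subunits Atp6ap1 (0.12, FDR 0.524) and Atp6ap2 (-0.03, FDR 0.94) did not pass.

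**Figure D3:**
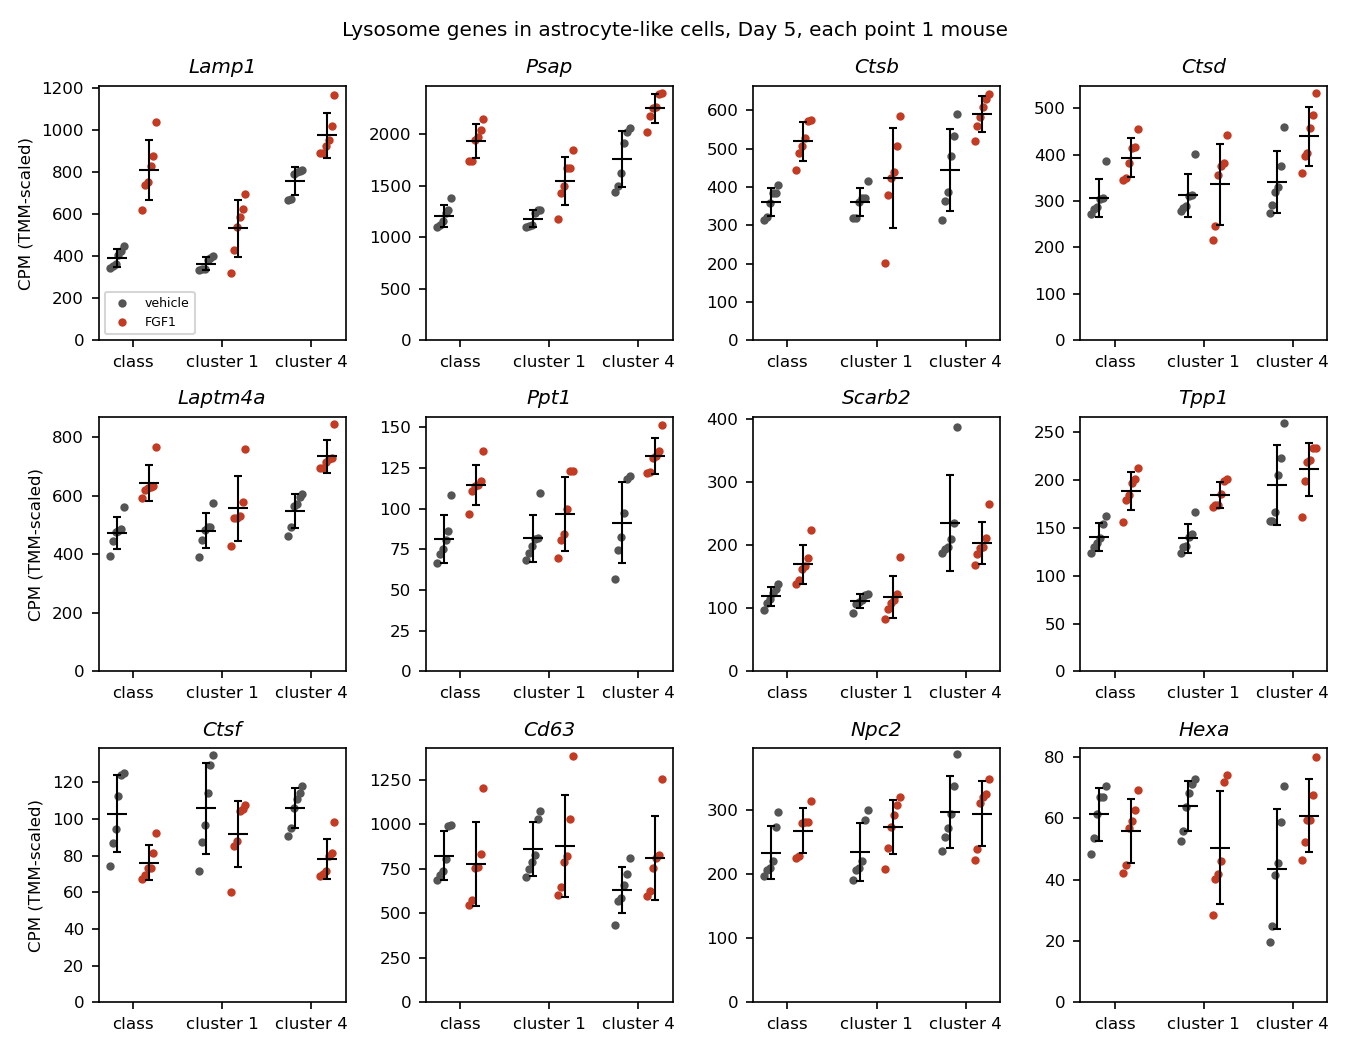
CPM (y axis, from 0, TMM-scaled) of 12 lysosome genes in astrocyte-like cells on Day 5, for the merged class and for clusters 1 and 4 alone. Each point is 1 mouse and black marks are the mean ± SD. In the class, FGF1 mice lie above all vehicle mice for Lamp1 (622.05 to 1036.5 against 346.54 to 450.51), Psap, Ctsb and Laptm4a, and the groups of Cd63 overlap throughout.

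Within the 2 astrocyte-like clusters taken apart, no member passed the test. In cluster 1, where 0.404% of all genes were called, edgeR called 0 of 29 members, 8 had an unadjusted p under 0.05, and DESeq2 called Psap and Lamp1. Lamp1 had 334.64, 362.24 and 400.45 CPM in vehicle and 322.2, 562.03 and 696.63 in FGF1 mice (log2 fold change 0.52, SE 0.14, FDR 0.0939), and Psap 1098.1, 1173.6 and 1267.4 against 1175.1, 1581.1 and 1846.1 (0.39, SE 0.12, FDR 0.175). For both genes 5 of 6 FGF1 mice were above the highest vehicle mouse, and the remaining mouse lay below all vehicle mice for Lamp1 and within their range for Psap. Tpp1 did not overlap (124.02 to 166.19 against 171.27 to 201.28 CPM, 0.37, FDR 0.316). Ctsb (0.30, FDR 0.469), Npc2 (0.24, FDR 0.619), Ctsd (0.17, FDR 0.767) and Cd63 (0.09, FDR 0.916) did not pass. The FGF1 mice gave 1531 cells to cluster 1, as few as 40 in 1 mouse, against 7940 from vehicle mice.

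In cluster 4, where 0.385% of all genes were called, edgeR called 0 of 26 members, 6 had an unadjusted p under 0.05, DESeq2 called Laptm4a, and edgeR without the filter on low counts called Psap, Lamp1, Ctsb and Laptm4a. Lamp1 had 668.77, 795.26 and 809.4 CPM in vehicle and 891.78, 938.44 and 1167 in FGF1 mice (log2 fold change 0.36, SE 0.12, FDR 0.198), with no overlap. Laptm4a (462.36 to 604.2 against 695.26 to 845.31 CPM, 0.42, FDR 0.137) and Ppt1 (57 to 119.72 against 121.55 to 151.52, 0.45, FDR 0.414) did not overlap either. Psap had 1442.5, 1769.2 and 2062.4 CPM in vehicle and 2022.5, 2257.4 and 2399.6 in FGF1 mice (0.34, SE 0.11, FDR 0.194). Ctsb (0.41, FDR 0.211), Ctsd (0.33, FDR 0.44), Cd63 (0.32, FDR 0.559) and Npc2 (-0.00, FDR 1) did not pass.

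The clusters also differed from each other in the same treatment group, which is given as a description. CPM was relative to the UMIs of 7679 genes in cluster 1 and of 5967 in cluster 4, so the 2 are not on one scale. In vehicle mice 22 of 33 members were higher in cluster 4 than in cluster 1 (median log2 ratio 0.17), and in FGF1 mice 24 of 33 (0.23). Lamp1 in vehicle mice was at 364.72 ± 30.4 CPM in cluster 1 and at 757.57 ± 68.4 in cluster 4. Summed UMIs of the members per 10000 were 51.618 to 63.719 in vehicle and 57.214 to 80.663 in FGF1 mice in cluster 1, which overlapped, and 63.393 to 75.224 against 76.573 to 88.212 in cluster 4, which did not.

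**Figure D4:**
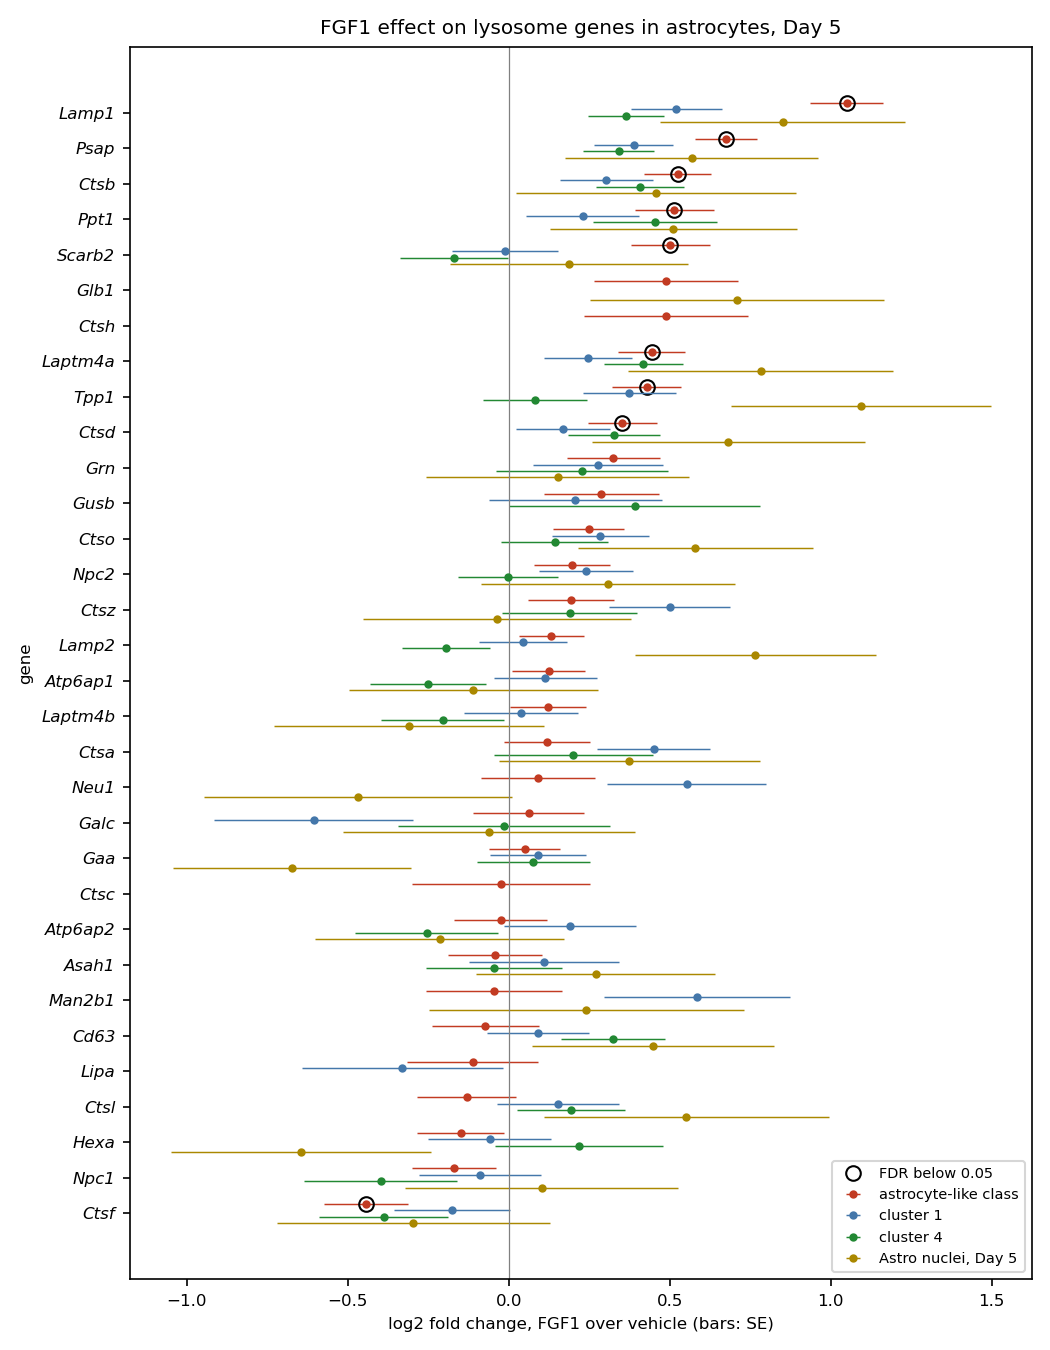
Log2 fold change of FGF1 over vehicle (x axis, bars are the SE) for the lysosome genes (y axis) in astrocytes on Day 5, in the merged astrocyte-like class, in clusters 1 and 4 and in Astro nuclei. Circles mark an FDR below 0.05, which 9 members reached in the class, Lamp1 with 1.05 as the largest, and none in the other 3 comparisons.

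Other RNA in the astrocyte-like class moved as well. Of the astrocyte markers, Aqp4 rose (log2 fold change 1.53, FDR 8.08e-09) and Slc7a10 fell (-0.46, FDR 0.00948). Aqp4 was among the genes of largest fold in cluster 4 and Slc7a10 among those in cluster 1. Neuron marker UMIs per 10000 were 3.926 to 7.621 in vehicle and 2.163 to 4.286 in FGF1 mice, and 5 of 6 neuron markers were lower. Microglia markers summed to 1.165 to 2.632 and 0.925 to 3.692, with 0 of 5 tested called by edgeR, and macrophage markers to at most 0.0628 and 0.0705. Of 5 tanycyte markers tested Lhx2 (1.23) and Crym (1.19) rose on the log2 scale, of 3 ependymal markers Foxj1 (0.81) and Dynlrb2 (0.46), and the 1 COP marker tested, Gpr17 (1.00), while 1 of 5 oligodendrocyte markers, Ermn (-1.31), fell. Tanycyte markers summed to 0.709 to 0.875 UMIs per 10000 in vehicle and 0.879 to 1.93 in FGF1 mice. Immediate-early genes, which rise when tissue is dissociated, fell from 15.291 to 33.655 down to 5.667 to 15.141, with 6 of 10 lower (Dusp1 -1.88, Egr1 -1.29, Fosb -1.43, Fos -1.49, Junb -1.59, Ier2 -1.84 on the log2 scale). Mitochondrial UMIs were 11.7 to 16.9% per vehicle mouse and 13.4 to 16.2% per FGF1 mouse. The part of these in the member changes was not tested.

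Other lysosome genes outside the 33 gave a mixed picture in the class. Of 23 further hydrolase genes tested of 26, 3 rose. Arsa and Arsb, which encode sulfatases, rose by log2 fold changes of 1.04 (FDR 6.53e-04) and 0.64 (FDR 0.00182), and Gm2a, an activator of hexosaminidase, by 0.48 (FDR 0.00304). Dnase2a fell (-0.67, FDR 0.0464). Of 20 further membrane and sorting genes tested of 21, the tetraspanins Cd82 (0.70, FDR 0.0096) and Cd9 (0.38, FDR 0.0366) rose. Of 15 proton pump genes tested of 16, Atp6v0a2 rose (0.59, FDR 0.00378) and Atp6v1g2 (-0.76, FDR 0.00799) and Atp6v1d (-0.44, FDR 0.0226) fell. None of 15 lysosome regulators tested of 16, of 11 autophagy genes and of 3 protease inhibitors tested of 6 was called by edgeR. Median log2 fold changes were 0.11 for the hydrolases, 0.08 for membrane and sorting genes, -0.14 for the pump, 0.02 for regulators and -0.06 for autophagy genes.

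To ask whether astrocyte-like cells responded differently from other cells, the difference of the FGF1 effects was fitted with mouse as a term, since the same 12 mice gave both classes. Lamp1 and Psap stood apart. The effect of the merged class includes the shift of its cells from cluster 1 to cluster 4. A different response of the cells and that shift cannot be told apart here, and cluster 4 alone was not compared with other cells. The Lamp1 effect was larger in the astrocyte-like class than in each of the 6 other classes compared, by 0.91 (SE 0.12) on the log2 scale against oligodendrocyte-like cells up to 1.13 (SE 0.14) against endothelial-like cells (FDR 4.84e-10 to 0.00845). The Psap effect was larger than in 5 of the 6, by 0.78 (SE 0.10) against OPC-like up to 0.93 (SE 0.11) against tanycyte-like cells. Scarb2 was larger than in 4 (0.43 to 0.68).

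The differences called were 7 of 33 members against tanycyte-like cells, where 14.1% of all genes were called, 6 of 32 against OPC-like cells (7.89%), 3 of 32 against oligodendrocyte-like cells (6.34%) and 3 of 33 against endothelial-like cells (4.55%). They were 2 of 31 against ependymal-like cells (6.38%) and 1 of 33 against microglia-like cells (0.381%). Cd63 (-0.54, SE 0.11, FDR 4.07e-04) and Ctsl (-0.38, FDR 0.0402) had a smaller effect in astrocyte-like than in tanycyte-like cells, and Hexa (-0.82, FDR 0.00866) and Ctsl (-0.52, FDR 0.022) a smaller one than in OPC-like cells. Merged classes were compared after the data had been seen. Between single clusters, cluster 1 differed from tanycyte-like cluster 0 in 1 of 32 members, Psap (0.55, SE 0.12, FDR 0.00184), where 2.41% of all genes were called. It differed from clusters 2, 3, 5, 6 and 8 in none (0.374% of genes called), and with RLE in place of TMM scaling Psap or Lamp1 passed against clusters 0, 3, 5 and 6. All these comparisons share the astrocyte-like cells.

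Tanycyte-like cells, which line the floor of the third ventricle, had 4 called members, none of them among those called in the astrocyte-like class. Cd63, Ctsh and Ctsz rose and Npc1 fell, while Lamp1 and Psap did not pass. The test of the difference from astrocyte-like cells passed for Cd63 and Npc1 but not for Ctsh (-0.24, SE 0.26, FDR 0.625) or Ctsz (-0.21, SE 0.13, FDR 0.328). In the merged class 3 of 32 members were higher and 1 was lower, where 2.29% of all genes were higher and 2.79% lower, with a median log2 fold change of 0.12 over members and -0.01 over all genes. Cluster 0 held a median of 80.72% of the vehicle and 62.13% of the FGF1 cells of the class, and cluster 7 10.74% and 22.73%. In cluster 0 alone, Cd63 (0.43), Ctsh (0.76) and Ctsz (0.39) passed with log2 fold changes close to those of the class, and Npc1 did not pass (-0.77, FDR 0.0695). Among named clusters of vehicle mice, mean CPM of Npc1 was lowest in cluster 7, though clusters are not on one scale. For Npc1 a change within cells and the change in mix cannot be told apart.

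Cd63 had 692.05, 781.93 and 964.43 CPM in the lowest, median and highest vehicle mouse and 865.73, 1124.5 and 1475.1 in FGF1 mice (log2 fold change 0.44, SE 0.12, FDR 0.0354). Ctsh, an aminopeptidase, had 19.476, 24.53 and 41.47 CPM against 24.873, 49.367 and 53.899 (0.69, SE 0.20, FDR 0.0439), and Ctsz, a carboxypeptidase, 74.197, 84.22 and 90.89 against 94.974, 101.65 and 140.09 (0.40, SE 0.12, FDR 0.0442). Of these, only Ctsz did not overlap. Npc1 fell from 9.038, 21.154 and 22.421 CPM to 6.182, 11.434 and 13.986 (-0.90, SE 0.24, FDR 0.0268), with an overlap. Psap (-0.25, FDR 0.163), Ctsb (0.32, FDR 0.0984), Lamp1 (-0.03, FDR 0.93), Ctsd (0.05, FDR 0.836) and Npc2 (0.04, FDR 0.902) did not pass. Ids, a sulfatase gene outside the set, fell (-0.61, FDR 0.00906), as did the pump gene Atp6v0a1 (-0.53, FDR 0.0488). Leaving out vehicle replicates 29, 27, 20 or 25 or FGF1 replicates 7, 10 or 36 ended the call of Cd63 (FDR 0.0737 to 0.100), and the same mice ended that of Npc1 (FDR 0.0503 to 0.104). Ctsh and Ctsz each kept their call in 3 of 12 such fits, with an FDR up to 0.13. Astrocyte markers in the class fell alongside (4 of 6 lower), as did 1 of 5 neuron markers tested, Syt1 (-0.93), and 1 of the 6 tanycyte markers, Rax (-0.65, FDR 0.0436). Their part was not tested.

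In tanycyte-like cluster 0 alone 3 of 30 members were higher, where 2.64% of genes were. They were Ctsh (15.957 to 37.126 CPM against 24.216 to 57.437, log2 fold change 0.76, SE 0.20, FDR 0.0241), Cd63 (675.42 to 1031.9 against 867.3 to 1397.7, 0.43, SE 0.12, FDR 0.0282) and Ctsz (74.112 to 90.423 against 90.499 to 120.31, 0.39, SE 0.12, FDR 0.0435). Only Ctsz did not overlap. Without vehicle replicates 27, 20 or 25 or FGF1 replicates 7, 10 or 36 none of the 3 was called (FDR 0.0528 to 0.138), and Cd63 and Ctsz were also lost without vehicle replicate 29. Without FGF1 replicate 28 or vehicle replicate 22 Ctsz alone was lost (FDR 0.0544 and 0.0559). It was also lost by DESeq2 (FDR 0.0567), without the low-count filter (0.0607), without barcodes over the stated limits (0.0545) and with batch as a term (0.0701), where Cd63 and Ctsh passed. In this cluster 4 of 6 astrocyte markers fell (Agt -1.07, Slc7a10 -0.98, Gjb6 -0.90, Slc6a11 -0.72), as did the neuron marker Syt1 (-0.85), and the tanycyte marker Crym rose (0.55). Their part was not tested.

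Endothelial-like cells had 2 of 30 members higher, where 0.363% of genes were. Ctsh had 127.56, 160.55 and 201.39 CPM in vehicle and 191.76, 249.66 and 280.04 in FGF1 mice (log2 fold change 0.58, SE 0.13, FDR 0.0197), with an overlap at the edge. Laptm4a had 514.08, 607.47 and 659.95 CPM in vehicle and 730.51, 790.36 and 907.66 in FGF1 mice (0.45, SE 0.11, FDR 0.0394), and Ctsb 156.7 to 187.7 against 213.9 to 265.5 (0.40, SE 0.12, FDR 0.0854). Neither of these overlapped. The Ctsh call was lost without vehicle replicate 25 or FGF1 replicates 6, 21 or 10 (FDR 0.0502 to 0.11), and that of Laptm4a was lost without any of 8 mice, vehicle replicates 29, 27, 20 and 25 and FGF1 replicates 7, 6, 21 and 10 (FDR 0.0508 to 0.185), and without the low-count filter (FDR 0.0674). Of 6 astrocyte markers Slc6a11 fell in these cells (-0.80, FDR 0.0332), and its part was not tested. Lamp1 (-0.10), Psap (-0.18), Ctsd (0.18), Npc2 (0.14) and Cd63 (0.16) did not pass.

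OPC-like cells had 1 of 25 members higher, where 1.2% of genes were. Hexa, the alpha subunit of hexosaminidase, had 43.503, 52.029 and 59.882 CPM in vehicle and 51.648, 82.036 and 103.67 in FGF1 mice (log2 fold change 0.65, SE 0.19, FDR 0.0483), with an overlap through the lowest FGF1 mouse. The call held in 3 of 12 fits that left out 1 mouse, those without vehicle replicate 35 or FGF1 replicates 28 or 6, and reached an FDR of 0.182 without FGF1 replicate 7. Hexa was not called with batch as a term (FDR 0.068), without the low-count filter (FDR 0.0773), where Ctsh was called instead, or by DESeq2, which gave it no adjusted p. In the same cells the immediate-early genes Egr1 (1.06) and Fos (0.47) rose, and the neuron marker Snap25 (-0.64), the OPC marker C1ql1 (-0.60) and the COP marker Neu4 (-0.43) fell. Their part was not tested. Lamp1 (0.07), Psap (-0.11), Ctsd (0.25), Ctsb (0.11), Npc2 (0.10) and Cd63 (-0.04) did not pass.

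Microglia-like cells, the cells with the highest level of the set, held no called member. Of 28 members tested 26 had a log2 fold change above 0, with a median of 0.23 against -0.01 over all genes. But edgeR and DESeq2 each called 0 members by FDR, where edgeR called 0.262% of all genes. An unadjusted p under 0.05 was reached by 9 members with edgeR and 8 with DESeq2. The share of all genes at that p is not given. Ctsd had 2543.9, 2858.6 and 5273.1 CPM in the lowest, median and highest vehicle mouse and 2201, 4743.4 and 5968.1 in FGF1 mice (0.44, SE 0.22, FDR 0.418). The groups overlapped almost throughout, since the highest vehicle mouse was above 4 FGF1 mice and the lowest FGF1 mouse below all vehicle mice. Npc2 had 425.88, 499.25 and 900.07 CPM in vehicle and 677.84, 877.43 and 1245.5 in FGF1 mice (0.66, SE 0.21, FDR 0.168), and Ctsb 723.32, 928.31 and 1279.8 against 1129.7, 1264.9 and 1596.2 (0.50, SE 0.17, FDR 0.205).

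Grn had 577.91, 704.37 and 1153.2 CPM in vehicle and 923.16, 1122.4 and 1192.1 in FGF1 mice (log2 fold change 0.52, SE 0.18, FDR 0.206), and 1 vehicle mouse, replicate 22, lay inside the FGF1 range. Ctsz (0.59, FDR 0.181), Ctsc (0.66, FDR 0.223), Gusb (0.58, FDR 0.211) and Ctsh (0.57, FDR 0.223) had values of the same size. Psap (1690.4 to 2510.3 against 1794.7 to 2364.1 CPM, 0.08, FDR 0.881), Cd63 (0.24, FDR 0.678) and Lamp1 (-0.03, FDR 0.977) differed less. Ctsf, as in astrocyte-like cells, was the member with the most negative value (-0.68, SE 0.25, FDR 0.231). UMIs of 8 microglia markers per 10000 were 100.61 to 185.66 in vehicle and 125.92 to 200.99 in FGF1 mice, with none of the 8 called by edgeR, so the cells of both groups carried the markers of their name. A vehicle mouse gave as few as 40 and an FGF1 mouse as few as 73 cells, and these differences did not pass the FDR threshold.

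The oligodendrocyte-like class had no called member by edgeR or DESeq2 (0 of 30, 2 and 3 at an unadjusted p under 0.05), where 2.25% of genes were called. Ctsb (245.6 to 276 against 260.3 to 335.67 CPM, 0.25, FDR 0.162), Lamp1 (499.04 to 622.59 against 567.96 to 655.01, 0.13, FDR 0.532) and Psap (839.56 to 1054 against 751.73 to 916.43, -0.18, FDR 0.372) overlapped. Cluster 2 held a median of 82.93% of the vehicle and 56.18% of the FGF1 cells of this class, and cluster 11 2.457% and 35.6%. In the 10 named clusters not given above one by one (2, 6, 7, 9, 10, 11, 12, 13, 15 and 16) no member was called by edgeR as described or by DESeq2, where 1.45% of genes tested were called by edgeR. With batch as a term edgeR called Cd63 in tanycyte-like cluster 7, and without the low-count filter Cd63 in cluster 7 and Cd63 and Ctsl in COP-like cluster 9. The tests ran on 29, 27, 24, 22, 17, 13, 18, 11, 4 and 18 members, and 16 of these tests with edgeR and 10 with DESeq2 had an unadjusted p under 0.05.

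On Day 1 edgeR called Cd63, Ctsb and Ctsl higher and Psap lower, in Tany, VLMC or Epend nuclei, and DESeq2 also called Cd63 and Ctsc in other types, given below by type. In Tany nuclei 2 of 16 members were higher, where 5.38% of genes were. Cd63 had 334.4, 533.5 and 287.1 CPM in vehicle replicates 1, 2 and 3 and 1813, 1098 and 971.2 in FGF1 replicates 1, 2 and 3 (log2 fold change 1.74, SE 0.43, FDR 0.022). Ctsb had 244, 299.5 and 107.7 CPM in vehicle and 880.1, 427.4 and 669.8 in FGF1 mice (1.56, SE 0.44, FDR 0.0423). In both genes all 3 FGF1 mice were above all vehicle mice. Psap was lower in all 3 FGF1 mice but did not pass (768.1, 1245 and 897.1 against 691.3, 569.8 and 301.4 CPM, -0.87, SE 0.41, FDR 0.222), and Lamp1 (0.18), Ctsd (-0.27) and Npc2 (0.02) did not differ by more than their SE.

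The Cd63 call in Tany nuclei was lost without vehicle replicate 1 (FDR 0.17) or 3 (FDR 0.105). That of Ctsb was lost without any of 5 mice and held only without FGF1 replicate 2 (FDR up to 0.186). With the deposited batch number, which ties 1 FGF1 to 1 vehicle mouse, as a term chosen after the data had been seen, neither passed (FDR 0.121 and 0.175). Without the low-count filter Cd68 and Ctsh were also called. A mouse gave 20 to 35 Tany nuclei with vehicle and 25 to 119 with FGF1. Ependymal markers in these nuclei were at 3.02 to 5.28 UMIs per 10000 with vehicle and at 0.63 to 0.953 with FGF1, immediate-early genes at 0.642 to 1.40 and 3.15 to 6.40, and ribosomal UMIs at 1.82 to 2.55% and 3.39 to 7.62%. Their part was not tested.

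In Epend nuclei 1 of 6 members was lower, where 8.86% of genes were. Psap had 1898, 1243 and 1718 CPM in vehicle replicates 1, 2 and 3 and 834.2, 996.5 and 751.9 in FGF1 replicates 1, 2 and 3, with all FGF1 mice lower (log2 fold change -0.90, SE 0.29, FDR 0.0379). These levels rest on 22 to 64 UMIs per mouse. Cd63 was higher in all 3 FGF1 mice (415.1, 466.3 and 372.2 against 1043, 616.9 and 615.2 CPM, 0.85, SE 0.33, FDR 0.0773). The Psap call held in 1 of 6 fits without 1 mouse, that without vehicle replicate 2 (FDR 0.0669 to 0.154 in the others), and was not made by DESeq2 (FDR 0.163), without the low-count filter (0.0731), where Ppt1 was called instead, without barcodes over the stated limits (0.0679) or with batch as a term (0.0683). Ependymal markers were at 25.8 to 35.6 UMIs per 10000 with vehicle and 8.27 to 14.4 with FGF1, with 4 of 5 lower, and neuron markers at 23.8 to 27.8 and 29.2 to 58.9. Their part was not tested.

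In VLMC nuclei 2 of 8 members were higher, where 1.79% of genes were. Ctsl, a cysteine protease, had 214.7, 612 and 48.27 CPM in vehicle replicates 1, 2 and 3 and 1815 and 1535 in FGF1 replicates 1 and 3 (log2 fold change 2.49, SE 0.64, FDR 0.0117), and Ctsb 262.4, 448.8 and 386.2 against 1536 and 1599 (2.11, SE 0.62, FDR 0.0447). Both FGF1 mice were above all vehicle mice. On leaving out 1 mouse the Ctsl value ran from 2.05 to 3.53 and that of Ctsb from 1.95 to 2.36. FGF1 replicate 2 had fewer than 10 of these nuclei and was not in the fit, and the lowest of these levels was 1 UMI. Without any of the 3 vehicle mice both calls were lost (FDR 0.0562 to 0.528), as they were with batch as a term (FDR 0.996) and without the low-count filter (FDR 0.192 for Ctsl and 0.554 for Ctsb). VLMC markers in these nuclei were at 9.48 to 14.8 UMIs per 10000 with vehicle and 19.1 to 38.5 with FGF1, with Dcn higher (3.32) and Slc6a13 lower (-3.84) of 3 tested. COP markers were at 1.05 to 1.67 and 0.0 to 0.759. Their part was not tested.

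Astro nuclei on Day 1 had 0 of 24 members called by edgeR (4 at an unadjusted p under 0.05), where 1.55% of genes were, and DESeq2 called Cd63 and Ctsc, as edgeR without the low-count filter did Ctsc. Cd63 had 355.9, 555.4 and 169.8 CPM in vehicle and 2293, 1430 and 1075 in FGF1 mice (log2 fold change 2.14, SE 0.65, FDR 0.189). Ctsc had 10.2, 7.74 and 6.53 CPM against 74.0, 34.6 and 46.8 (2.68, SE 0.59, FDR 0.05, just above the threshold), from 1 to 4 UMIs in each vehicle mouse. In both genes the groups did not overlap. Psap (-0.55), Lamp1 (0.08), Ctsd (0.09), Ctsb (0.69) and Npc2 (-0.17) did not pass, and Ctsf was lower in all 3 FGF1 mice (-1.64, FDR 0.39). Immediate-early genes were at 0.64 to 1.13 UMIs per 10000 with vehicle and 2.80 to 7.44 with FGF1, and astrocyte markers at 19.7 to 29.2 and 9.79 to 19.9, and the endothelial marker Flt1 was higher (2.90). In nuclei labelled Micro, where 0.0% of genes were called, 0 of 15 members passed by edgeR or DESeq2 (2 at an unadjusted p under 0.05 by each), with Psap at -0.10, Ctsd at -0.59, Ctsb at -0.08 and Cd63 at 1.66 (FDR 0.953). In the other 13 types, 0.0677% of genes were called by edgeR and no member (10 of 167 tests at an unadjusted p under 0.05), and DESeq2 called Cd63 in Olig and COP nuclei.

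Cd63 had a positive value across nuclear types on Day 1, though most of its tests did not pass. Its log2 fold change was above 0 in all 13 types in which it was tested, from 0.85 in Epend to 2.14 in Astro nuclei with a median of 1.74, and its unadjusted p was under 0.05 in each, but the FDR of edgeR passed in Tany nuclei alone. DESeq2 called it in Tany, Astro, Olig and COP nuclei, and edgeR without the low-count filter in Tany, Olig, COP, n13.Agrp/Gm8773 and n29.Nr5a1/Adcyap1 nuclei. In 10 of the 13 every FGF1 mouse was above every vehicle mouse. The share of all genes with this order, or with an unadjusted p under 0.05, was not set beside these counts. Olig nuclei had 35.4, 112 and 39.0 CPM of Cd63 in vehicle replicates 1, 2 and 3 and 369, 186 and 240 in FGF1 replicates 1, 2 and 3 (2.00, SE 0.44, FDR 0.181), and neurons of the n29.Nr5a1/Adcyap1 type had 1.38 (SE 0.42, FDR 0.278). The 13 types share the same 6 mice and libraries, and with batch as a term edgeR called Cd63 in none. On Day 5 the same gene ran from -0.40 to 0.45 in 9 types, with none at an unadjusted p under 0.05. Ppt1 was the reverse case on Day 1, below 0 in all 16 types tested (-0.95 to -0.11), with 1 at an unadjusted p under 0.05.

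**Figure D5:**
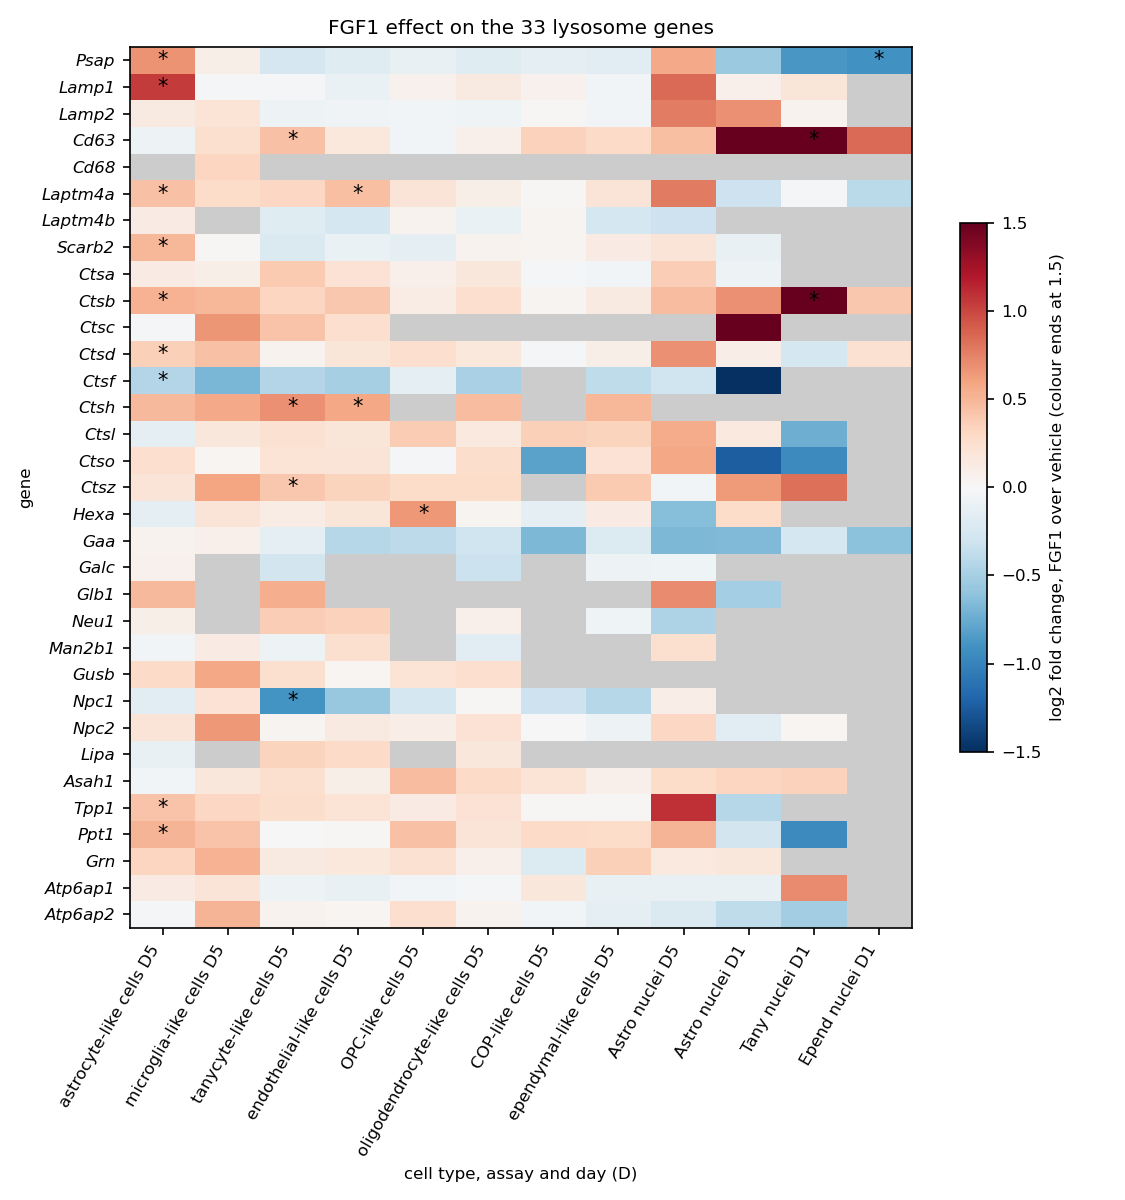
Log2 fold change of FGF1 over vehicle for the 33 lysosome genes (rows) in 12 cell types of whole cells and nuclei (columns, D is the day). Asterisks mark an FDR below 0.05, grey is not tested, and the colour ends at 1.5. Lamp1 (1.05) and Psap (0.67) stand out in astrocyte-like cells on Day 5, and Cd63 in Day 1 nuclei (0.85 to 2.14).

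Astro nuclei on Day 5 gave a second measurement in 2 FGF1 and 2 vehicle mice, from another supplier and another dissection than the whole cells. There edgeR and DESeq2 each called 0 of 28 members (2 and 1 at an unadjusted p under 0.05), where 0.625% of genes were called by edgeR. The median log2 fold change was 0.29 over members and -0.02 over all genes, and 19 members were above 0. Lamp1 had 221.3 and 183.6 CPM in vehicle replicates 28 and 38 and 325.7 and 412.4 in FGF1 replicates 37 and 45 (0.85, SE 0.38, FDR 0.336), and Tpp1 47.2 and 56.5 against 82.7 and 126.4 (1.09, SE 0.40, FDR 0.229). Both FGF1 mice were above both vehicle mice in these genes and in Lamp2 (174 and 120 against 256 and 262 CPM, 0.77, FDR 0.391). With 2 mice per group such an order arises easily, and its share over all 8484 genes tested was not computed. Psap had 969.9 and 614.2 CPM against 899.4 and 1468 (0.57, SE 0.39, FDR 0.565), with an overlap. Laptm4a (0.78), Ctsd (0.68), Ctsb (0.46), Cd63 (0.45) and Npc2 (0.31) were above 0 and did not pass. Without vehicle replicate 38, the mouse with the fewest Astro nuclei (33), Tpp1 was called. Summed member UMIs per 10000 were 35.193 and 45.53 with vehicle and 47.199 and 69.489 with FGF1.

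In the other 10 types of Day 5 nuclei, where 0.243% of genes were called, no member was called by edgeR or DESeq2 (10 and 1 of 180 tests at an unadjusted p under 0.05). Tany and Epend nuclei of Day 5 could not be tested, since vehicle mice gave 9 and 14 Tany and 3 and 8 Epend nuclei and a mouse entered with at least 10. Whether the effect of FGF1 differed between Day 1 and Day 5 was tested as an interaction in the 11 nuclear types with at least 2 mice in each of the 4 groups, and no member passed by edgeR (9 of 232 tests at an unadjusted p under 0.05), where 0.00784% of all genes did. In Astro nuclei the difference of Day 1 minus Day 5 was 1.67 (SE 0.82, FDR 0.663) for Cd63, -0.79 (SE 0.61, FDR 0.82) for Lamp1 and -1.14 (SE 0.86, FDR 0.814) for Psap. With 2 mice per group on Day 5, each of these SEs was at least 0.61.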

How the data were processed

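The authors deposited UMI counts per gene for single nuclei and single cells (10x 3′ v2, introns counted for nuclei, GRCm38), with tables of barcodes that for cells also give mitochondrial and ribosomal percent. The submitters' processing notes name Cell Ranger 1.2 and Seurat. Per the study's methods, cells with 400 to 4000 genes were kept, limits on mitochondrial and ribosomal UMIs were 20% in cells and 5% in nuclei, predicted doublets were removed from cells but not nuclei, neurons were removed from cells, and nuclei of the samples were integrated before typing. By the deposited percent columns 4382 cells, and by percentages computed here from the counts 954 nuclei, were over these limits. The deposited normalized values were not used here. Barcode tables were joined by order, and UMI totals and gene numbers were equal for all 24965 nuclei and 54890 cells. Counts come from the 3′ end of transcripts, so levels were compared between cell types for 1 gene and not between genes.

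Counts were summed per mouse and type (whole-cell cluster, merged class or deposited nuclear type) where a mouse had at least 10 cells and a group at least 2 such mice. Each sum was fitted over all genes with edgeR 4.0.16 (filterByExpr, TMM, robust quasi-likelihood test, R 4.3.3, limma 3.58.1) and called at a Benjamini-Hochberg FDR below 0.05 within a type. CPM is scaled by TMM within a type, over the UMIs of the genes that filterByExpr kept there. CPM of different types are therefore not on one scale. Differences of effects between classes had mouse as a term. The edgeR fit of FGF1 against vehicle was tested on simulated counts for single types, with a fixed dispersion and no batch effect. Merged classes, differences of effects, DESeq2 and fits with batch were not simulated. The study's methods used DESeq2 on such sums, and DESeq2 1.42.0 was an alternative here, beside RLE scaling, no low-count filter, at least 20 cells, no barcodes over the limits, batch or replicate number as a term, merged clusters and leaving out each mouse.

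A cluster was named after the markers of a class when at least 3 were in at least 10% of its cells and at least 2-fold over other cells. No name was given where every marker of a second class was found in at least 50% of the share of cells it had in that class. The same held where no marker of the class was among the 10 genes of largest fold in the cluster. Clusters 17, 18, 19 and 20 stayed unnamed, entered no class and were not tested. These naming rules were set after the profiles had been seen. The 33 members and all gene lists were chosen with earlier results of these data known. All 33 are accounted for in each comparison. How often groups of mice did not overlap among all genes tested was not computed. Percentages of all genes called are at the FDR threshold. Counts of members at an unadjusted p under 0.05 stand without the share of all genes at that p. Every member called by edgeR with these settings is named, Psap, Lamp1, Ctsd, Ctsb, Cd63 and Npc2 are given in the main comparisons whatever their value, at most 5 called genes of another list are named per comparison, and the 5 genes of most like level are named, except for 1 gene whose results are not reported here.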

Additional observations from a re-analysis of the deposited data

Results flagged for a closer look

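In 76 groups of mice examined, 3 held a mouse far from the others, where chance gives about 1 in 20. Ctsd in the astrocyte-like class was at 385.51 CPM in vehicle replicate 22, against 271.99 to 307.47 in the other vehicle mice. Laptm4a in the same class was at 764.34 CPM in FGF1 replicate 10, against 590.69 to 632.5. Ctsz in the tanycyte-like class was at 140.09 CPM, again in FGF1 replicate 10, against 94.974 to 111.05.

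The FGF1 effect of a member differed between astrocyte-like and other cells in 23 tests of the difference itself. In tests of merged classes the astrocyte-like effect includes the shift from cluster 1 to cluster 4. Each difference is given as astrocyte-like minus the other class on the log2 scale. For Lamp1 it was 1.0634 against tanycyte-like, 0.97475 against OPC-like, 1.1286 against endothelial-like, 1.107 against ependymal-like, 0.90926 against oligodendrocyte-like and 0.9484 against microglia-like cells. For Psap it was 0.92517 against tanycyte-like, 0.77577 against OPC-like, 0.84607 against endothelial-like, 0.89019 against ependymal-like and 0.85373 against oligodendrocyte-like cells, and 0.54506 for cluster 1 minus cluster 0. For Scarb2 it was 0.68196 against tanycyte-like, 0.62829 against OPC-like, 0.56173 against endothelial-like and 0.42995 against oligodendrocyte-like cells.

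Against tanycyte-like cells Ppt1 (0.48729) and Npc1 (0.73865) had a higher and Cd63 (-0.54397) and Ctsl (-0.38083) a lower value in astrocyte-like cells. Against OPC-like cells Ctsb (0.4215) was higher and Hexa (-0.8177) and Ctsl (-0.52156) were lower. With RLE scaling Ctsl no longer passed against tanycyte-like cells and Ctsd did.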

How the results depend on the processing

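No called member changed direction under the alternatives run for it. Of single members called, 274 values kept their side of the threshold and 128 did not, 104 of the latter on leaving out 1 mouse. Lamp1, Psap, Ctsb, Laptm4a, Ppt1, Scarb2 and Tpp1 in the astrocyte-like class passed in all 18 alternatives. All of these alternatives kept clusters 1 and 4 merged. With the clusters taken apart, edgeR called 0 of 29 members in cluster 1 and 0 of 26 in cluster 4.

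Members called in Day 1 nuclei, 5 in all, were 10 without the low-count filter, 8 by DESeq2, 2 with at least 20 nuclei (12 types fitted), 3 without barcodes over the limits, 0 with batch as a term, and 0 to 6 on leaving out 1 mouse (0 without vehicle replicate 1 or 3, 3 without vehicle replicate 2). With the replicate number as a block 1 was called. After the mean of each group was taken away, correlations of same-numbered mice ran from -0.50 to 0.52. Those of same-batch mice ran from -0.66 to 0.07. Taking away the mean of 3 mice forces mixed signs, so these ranges cannot decide whether mice are paired. In Day 5 nuclei the count was 0, and 0 to 1 on leaving out 1 mouse (Tpp1, without vehicle replicate 38), where the lone sample is assumed to vary like the others.

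In Day 5 cells the 6 calls of single clusters became 11 without the low-count filter, 16 with clusters of one name merged, and 0 to 10 on leaving out 1 mouse. They were 0 without vehicle replicate 25, 1 without FGF1 replicates 7 or 10 or vehicle replicates 27 or 20, 2 without vehicle replicate 29 or FGF1 replicate 36, and 10 without vehicle replicate 35. The 16 calls of merged classes became 8 to 19 (8 without vehicle replicates 29 or 25 or FGF1 replicate 7, 9 without vehicle replicates 27 or 20 or FGF1 replicate 10). Effects that differed between clusters were 1, 7 with RLE scaling and 22 with merged classes. Batch as a term in nuclei, all alternatives for merged classes and merging for effect differences were chosen after the data had been seen. The cause of these changes was not tested. Low counts limit the nuclei, where 6 to 24 members were tested in the 5 types described for Day 1.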

Other observations

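Tetraspanins other than Cd63 stood outside the 33 genes. Cd9, a tetraspanin of the cell surface and of endosomes, rose after FGF1 on Day 5 in the OPC-like (log2 fold change 0.56, SE 0.11, edgeR FDR 0.00403), COP-like (0.78, SE 0.18, FDR 0.0322) and oligodendrocyte-like class (0.54, SE 0.11, FDR 0.00838), besides the astrocyte-like class, and in COP nuclei (1.72, SE 0.35, FDR 0.0107). The study lists OPC and COP nuclei together, and nuclei of this label carried markers of both. In those COP nuclei the COP markers Enpp6 (4.12) and Bmp4 (2.74) and the oligodendrocyte markers Mag (4.69) and Cldn11 (2.62) rose too. OPC markers were at 20.4 and 22.7 UMIs per 10000 with vehicle and at 9.92 and 15.6 with FGF1. COP markers were at 2.10 and 2.16 with vehicle and at 4.60 and 6.15 with FGF1. The part of these markers in the Cd9 value was not tested. On Day 1 it was called in Epend nuclei (1.10, SE 0.30, FDR 0.0147). Cd82 rose in the oligodendrocyte-like class (0.63, SE 0.12, FDR 0.00663), as did Ctsk, a cathepsin outside the set (0.80, SE 0.21, FDR 0.0442). Cd82 was not called in cluster 2, 11 or 12 alone, nor Ctsk in cluster 2, the one of these in which it was tested. Cluster 11 held a median of 2.457% of the class in vehicle and 35.6% in FGF1 mice, and the mix and a change within cells cannot be told apart for them. In the class the oligodendrocyte markers Cldn11 (0.69), Opalin (0.73) and Mog (0.57), the tanycyte marker Crym (1.498) and the ependymal marker Dynlrb2 (0.99) rose, and the astrocyte markers Htra1 (-0.79), Slc7a10 (-1.06) and Agt (-1.03) fell. Cst3, the cathepsin inhibitor cystatin C, fell in Epend nuclei on Day 1 (-1.30, SE 0.36, FDR 0.0164).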
